A study of Mus musculus with 6 samples.

Results

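The data cover 10 mouse genes of the osteoclast and of the RANKL pathway, chosen by name, among the 47729 genes in the table. All 10 were found by Ensembl identifier, and all 10 were among the 19308 genes tested, which had a mean of at least 20 reads. The genes were read in bulk RNA of the proximal tibial epiphysis (the end of the shin bone at the knee, with its growth cartilage, the bone just below it and the joint cartilage) of 14-day-old mice. There were 3 Control mice (strain label Control (ICR), the random-bred line) and 3 mice of the line Longshanks 1 (LS1), which was bred for a long tibia relative to body mass. The mice of both groups were untreated, both epiphyses of a mouse were pooled into 1 library, and LS1 is a single selected line, so line and selection cannot be told apart here. Sex is not given in the sources used here.

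Osteoclasts are the multinucleated cells that resorb bone and calcified cartilage, and at the chondro-osseous front they open the way for bone to replace cartilage. Osteocytes, osteoblasts, stromal cells and hypertrophic chondrocytes make the ligand RANKL (*Tnfsf11*), which binds the receptor RANK (*Tnfrsf11a*) on precursors of the monocyte lineage. Osteoprotegerin (*Tnfrsf11b*) is a soluble decoy receptor that takes up the ligand. RANK signaling drives the transcription factor NFATc1, and under it come genes for cell fusion and for the acid and proteases that dissolve bone.

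Values are normalized counts, read counts scaled by a size factor for each library. The Control libraries held 68803249 to 76581954 reads and the LS1 libraries 82227711 to 88745366, so the LS1 values rest on more reads. Genes listed as osteoclast markers outside the 10 (*Itgb3*, *Mmp9*, *Oscar*, *Tcirg1*, *Siglec15*, *Slc9b2*, *Rufy4* and *Ckb*) were read in every library. Their summed level was 207635 to 261424 normalized counts in Control and 189575 to 272838 in LS1. *Mmp9* alone had 134827, 184552 and 166856 in Control and 142431, 173058 and 193609 in LS1. Whether osteoclasts alone made the RNA of these genes was not tested. LS1 replicate 3 stood apart from the other LS1 libraries. It held 13420 normalized counts summed over 10 interferon-response genes, against 29185 and 52669 in the other LS1 libraries and 10688 to 18596 in Control. Over all genes limma called 14 genes with all libraries and 324 without LS1 replicate 3.

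Upstream sequence from RefSeq (GRCm38.p6) was held for 5 of the 10 genes. Windows of 250 bases before the start site are shown for the ligand and for the 2 most abundant resorption genes, to set the ligand beside the genes it acts on. They lie at chr14:78308044-78308293 on the minus strand for *Tnfsf11*, at chr3:95498960-95499209 on the plus strand for *Ctsk*, and at chr9:22130599-22130848 on the minus strand for *Acp5*. RefSeq lists 3 start sites for *Acp5*, and the one shown lies farthest downstream and holds the most matches, while each of the other windows held 1 NFAT core match and no other motif. Each is written in the direction of transcription. Capitals mark matches, on either strand, to 5 short motifs. The NFAT core was searched as GGAAA. The PU.1 core, which shares its last letters with the NFAT core, was searched as GAGGAA. An E-box bound by MITF was searched as TCATGTG. The RUNX core was searched as TGTGGT. The TATA box was searched as TATAAA.
Tnfsf11: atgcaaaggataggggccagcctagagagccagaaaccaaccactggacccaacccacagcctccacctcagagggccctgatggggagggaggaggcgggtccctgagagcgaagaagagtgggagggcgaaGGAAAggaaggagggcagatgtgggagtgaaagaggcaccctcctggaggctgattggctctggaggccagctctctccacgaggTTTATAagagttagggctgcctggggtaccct
Ctsk: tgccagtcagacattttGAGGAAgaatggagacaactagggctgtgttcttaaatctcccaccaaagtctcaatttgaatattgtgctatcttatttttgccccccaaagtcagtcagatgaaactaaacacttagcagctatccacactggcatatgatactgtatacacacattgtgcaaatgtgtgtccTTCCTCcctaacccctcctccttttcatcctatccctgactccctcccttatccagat
Acp5: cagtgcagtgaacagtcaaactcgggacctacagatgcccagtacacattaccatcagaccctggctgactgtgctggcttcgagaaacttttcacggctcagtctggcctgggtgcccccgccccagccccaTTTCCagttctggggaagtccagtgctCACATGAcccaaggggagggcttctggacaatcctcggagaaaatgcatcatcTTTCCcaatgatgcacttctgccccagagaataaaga
The *Tnfsf11* window held 1 TATA box match, which began 32 bases before the start site, and 1 NFAT core match at 117 bases. The *Ctsk* window held 2 PU.1 core matches, at 233 and 58 bases. The *Acp5* window held 2 NFAT core matches, at 117 and 37 bases, and the MITF E-box at 90 bases. Of the 32851 windows of the same length in the RefSeq table, 55.6% held the NFAT core, 23.3% the PU.1 core, 3.25% the MITF E-box, 14.0% the RUNX core and 12.4% the TATA box. These matches are letters and not bound sites, since no binding was measured.

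The genes differed widely in level. On normalized counts per kilobase of exon (mean of 6 libraries), *Ctsk* was first with 121324, and ranked 15 among all genes tested. *Acp5* followed with 63304.5, *Atp6v0d2* with 5059, *Dcstamp* with 1590, *Tnfrsf11b* with 811, *Nfatc1* with 799.9, *Ocstamp* with 523, *Tnfsf11* with 497, *Tnfrsf11a* with 252 and *Calcr* with 104. The ranges over the 6 libraries overlapped for only 2 pairs of neighbours in this order. These were *Tnfrsf11b* with *Nfatc1*, and *Ocstamp* with *Tnfsf11*. The other 7 pairs of neighbours kept their order in 6 of 6 libraries. The 2 resorption enzymes at the top thus stood far above the ligand, its receptor and its decoy on the per-kilobase scale.

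The comparison of LS1 with Control asked which genes of the osteoclast and its ligand differed between the lines. The ligand and the decoy receptor were the 2 genes of the 10 in which every LS1 mouse lay above every Control mouse. Their mean normalized counts in LS1 were 1.33 times (*Tnfsf11*) and 1.48 times (*Tnfrsf11b*) those in Control. The 8 genes of the osteoclast itself overlapped between the groups, with log2 fold changes from -0.23 to 0.16. Over all genes tested LS1 lay above Control without overlap in 10.3%, below it in 8.94% (0 of the 10 genes) and apart in either direction in 19.2%, and a log2 fold change was above 0 in 50.7%. After adjustment over all genes, limma called 0 of the 10 at 0.05, where the background was 0.0725%. An unadjusted p-value under 0.05 with a higher value in LS1 was reached by 2 of the 10 genes, against 7.08% of all genes tested. DESeq2 on the recovered reads also called 0 of the 10 (background 2.38% in either direction), and edgeR called 0.

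**Figure D1:**
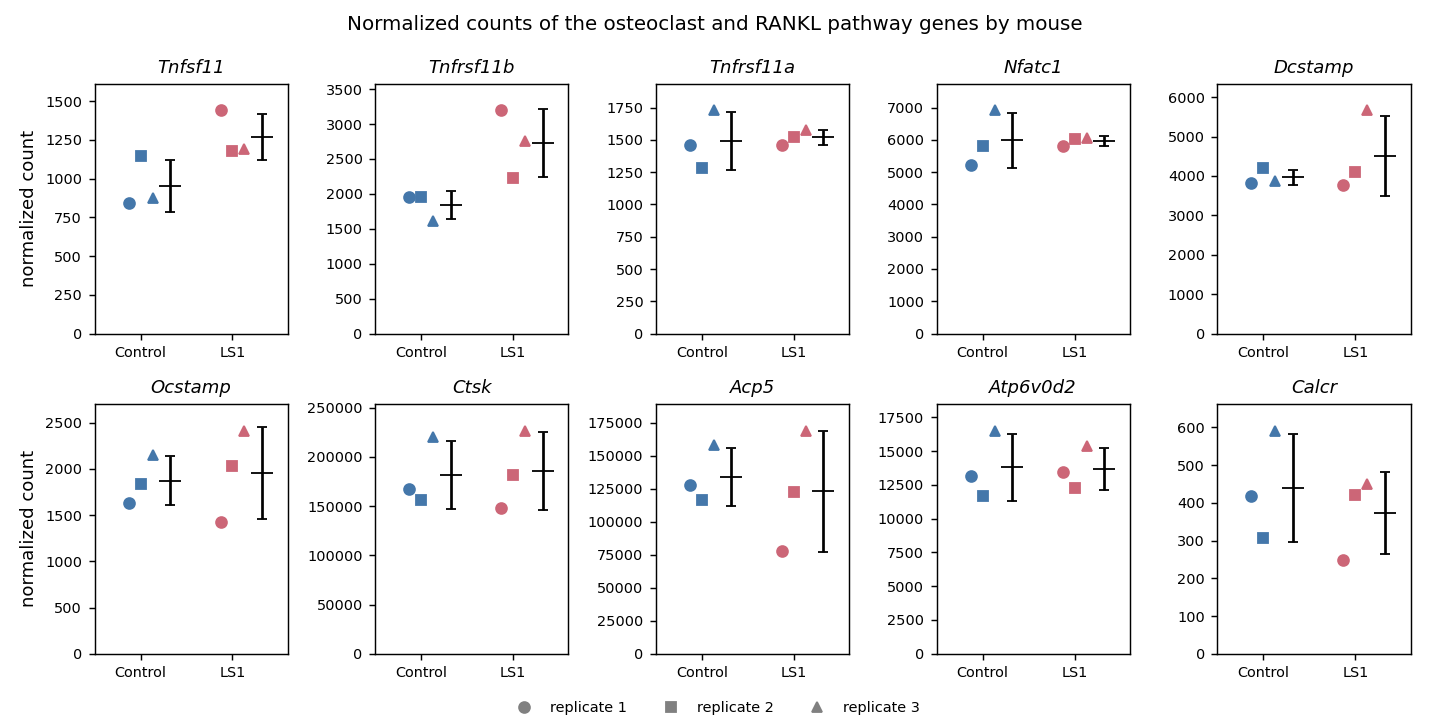
Normalized count (y axis, linear, from 0) of each of the 10 genes in the 3 Control (blue) and 3 LS1 (red) mice, with the mean and SD in black and replicates marked by symbol. Only *Tnfsf11* and *Tnfrsf11b* have all LS1 points above all Control points.

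*Tnfsf11* (ENSMUSG00000022015, chromosome 14 of GRCm38 from 78277445 to 78308043) encodes RANKL. The Control mice had 841, 1144 and 873 normalized counts and the LS1 mice 1441, 1179 and 1192. The groups did not overlap, but Control replicate 2 and LS1 replicate 2 differed by little. Control averaged 953 ± 166 and LS1 1271 ± 147 (mean ± SD, n = 3 each). The log2 fold change was 0.42 (standard error 0.18, 95% interval 0.02 to 0.82), with an adjusted p of 0.362 from limma. This difference did not pass the test.

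*Tnfrsf11b* (ENSMUSG00000063727, chromosome 15 from 54250619 to 54278484) encodes osteoprotegerin. The Control mice had 1961, 1958 and 1605 normalized counts and the LS1 mice 3196, 2230 and 2765. LS1 replicate 1 was the highest library for the decoy as it was for the ligand. Control averaged 1841 ± 205 and LS1 2730.0 ± 484 (mean ± SD, n = 3 each). The log2 fold change was 0.56 (standard error 0.17, 95% interval 0.19 to 0.93), with an adjusted p of 0.251 from limma and 0.0800 from DESeq2. It was the smallest adjusted p of the 10 genes with limma and with DESeq2, and it did not pass the threshold with any of the settings run. Bulk RNA cannot tell more cells of a type from more RNA per cell, and this holds for each gene here.

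The balance of ligand and decoy was taken as the ratio of *Tnfsf11* to *Tnfrsf11b*, per kilobase of exon, within each library. It was 0.541, 0.736 and 0.685 in Control and 0.568, 0.667 and 0.543 in LS1. The groups overlapped, and the decoy exceeded the ligand per kilobase in 6 of 6 mice. On the log2 scale Control averaged -0.62 ± 0.23 and LS1 -0.76 ± 0.15 (mean ± SD, n = 3 each). The difference of -0.14 was smaller than the spread in Control (exact permutation test, two-sided p = 0.5, where the smallest p that 3 mice against 3 allow is 0.1).

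**Figure D2:**
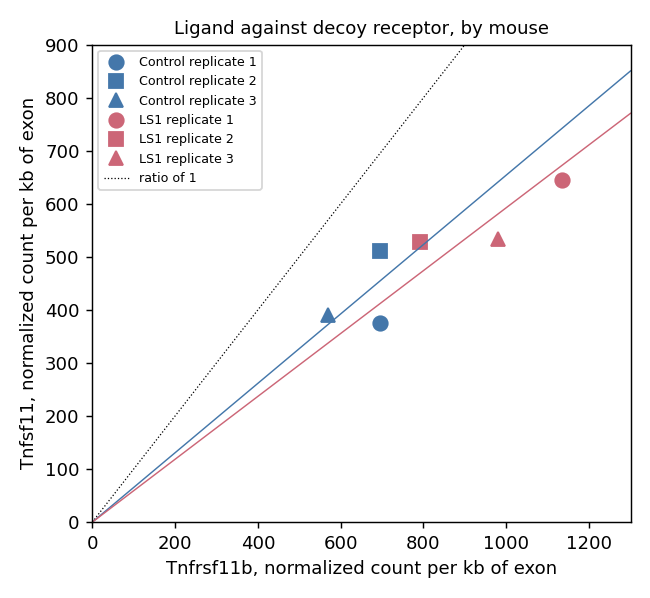
*Tnfsf11* (y axis) against *Tnfrsf11b* (x axis), both as normalized count per kilobase of exon, 1 point per mouse, with lines through 0 at the mean ratio of each group (0.654 in Control, 0.593 in LS1) and a dotted line at a ratio of 1. The LS1 mice lie farther along both axes, and all 6 mice lie below the dotted line.

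*Tnfrsf11a* (ENSMUSG00000026321, chromosome 1 from 105780718 to 105847981) encodes RANK, the receptor on osteoclast precursors. Its normalized counts were 1462, 1286 and 1729 in Control and 1458, 1524 and 1578 in LS1. All LS1 mice lay within the range of Control. LS1 minus Control was 0.04 on the log2 scale (standard error 0.16, 95% interval -0.32 to 0.39), with an adjusted p of 0.946 from limma.

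*Nfatc1* (ENSMUSG00000033016), the transcription factor at the head of the osteoclast program, had 5231, 5812 and 6911 normalized counts in Control and 5801, 6025 and 6068 in LS1. The LS1 mice again lay within the Control range. LS1 minus Control was 0.0045 on the log2 scale (standard error 0.14, 95% interval -0.30 to 0.30), with an adjusted p of 0.995 from limma. Its sign turned with TMM scaling, with scaling to total reads, with edgeR and with DESeq2. NFATc1 is also used by lymphocytes and endothelial cells, so the gene is not specific to osteoclasts. A gene on the opposite strand overlaps its introns.

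DC-STAMP (*Dcstamp*, ENSMUSG00000022303, chromosome 15 from 39745930 to 39760938) and OC-STAMP (*Ocstamp*, ENSMUSG00000027670, chromosome 2 from 165393760 to 165400405) are membrane proteins needed for precursors to fuse. *Dcstamp* had 3817, 4189 and 3880 normalized counts in Control and 3764, 4096 and 5663 in LS1. LS1 replicate 3 stood above the other 5 mice, which lay close together. The log2 fold change was 0.16 (standard error 0.16, 95% interval -0.19 to 0.52), with an adjusted p of 0.701 from limma, and it was -0.012 without LS1 replicate 3. *Ocstamp* had 1627, 1840.3 and 2151 normalized counts in Control and 1420, 2031 and 2413 in LS1. Its lowest and its highest library were both LS1, and the log2 fold change was 0.04 (standard error 0.20, 95% interval -0.41 to 0.48), with an adjusted p of 0.959 from limma.

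Cathepsin K (*Ctsk*, ENSMUSG00000028111, chromosome 3 from 95499256 to 95509362) is the protease that digests bone collagen. It had 167802, 155951 and 220697 normalized counts in Control and 148050, 181440 and 226712 in LS1. Within LS1 the highest mouse had 1.53 times the value of the lowest, while the means of the groups differed by 2.16%. On the log2 scale LS1 minus Control was 0.03 (standard error 0.19, 95% interval -0.38 to 0.43), with an adjusted p of 0.969 from limma.

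Tartrate-resistant acid phosphatase (*Acp5*, ENSMUSG00000001348, chromosome 9 from 22126727 to 22135711) is the enzyme stained to find osteoclasts in sections. It had 127370, 116282 and 158292 normalized counts in Control and 77432, 122759 and 168914 in LS1. LS1 replicate 1 was lowest of all and LS1 replicate 3 highest of all, a span of 2.18 times. Control averaged 133981 ± 21771 and LS1 123035 ± 45742 (mean ± SD, n = 3 each). On the log2 scale LS1 minus Control was -0.18 (standard error 0.25, 95% interval -0.75 to 0.39), with an adjusted p of 0.800 from limma. It was 0.12 without LS1 replicate 1 and -0.45 without LS1 replicate 3. Exons of a gene on the opposite strand overlap *Acp5*, and the sources used here do not say whether the counting used strand.

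*Atp6v0d2* (ENSMUSG00000028238, chromosome 4 from 19876841 to 19922605) encodes the d2 subunit of the proton pump and also takes part in fusion. It had 13194, 11688 and 16519 normalized counts in Control and 13436, 12244 and 15364 in LS1, and the LS1 mice lay within the Control range. In log2 units the difference was -0.0038 (standard error 0.16, 95% interval -0.34 to 0.34), with an adjusted p of 0.996 from limma. The calcitonin receptor (*Calcr*, ENSMUSG00000023964, chromosome 6 from 3685680 to 3764714), through which calcitonin halts the mature cell, was the least abundant of the 10 genes. It had 418, 307 and 592 normalized counts in Control and 249, 420.3 and 449.6 in LS1. In log2 units the difference was -0.23 (standard error 0.30, 95% interval -0.89 to 0.42), with an adjusted p of 0.779 from limma. It had the widest interval of the 10 genes.

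**Figure D3:**
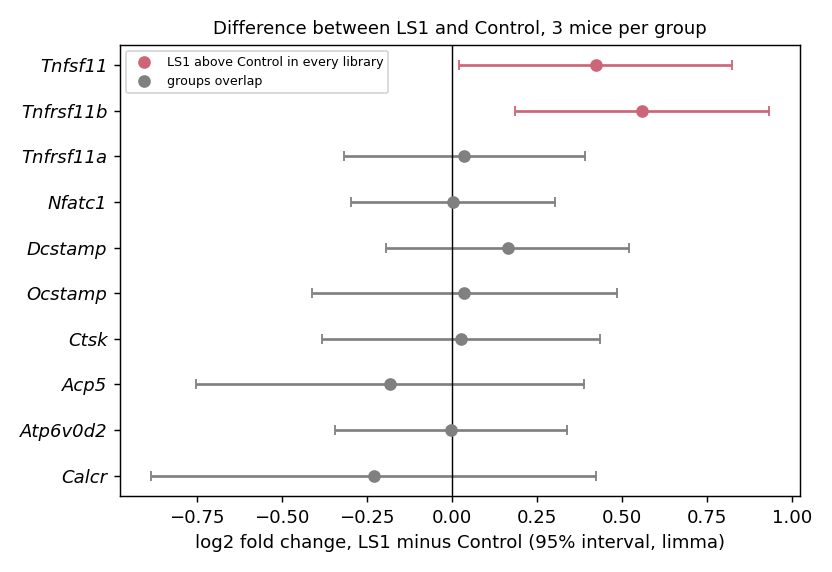
Log2 fold change of LS1 minus Control (x axis, limma on log2(value + 1)) for each gene, with its 95% interval as bars. The intervals of *Tnfsf11* and *Tnfrsf11b* (red) lie above 0 before adjustment over all genes, and the other 8 intervals (grey) contain 0.

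The 8 osteoclast genes varied more between mice of a group than between the groups. Relative to the mean of its 6 libraries, the log2 level averaged over these genes was -0.08, -0.15 and 0.25 in the Control mice and -0.29, 0.0055 and 0.25 in the LS1 mice. Control replicate 3 and LS1 replicate 3 were thus the high mice of each group, and between them they held the highest library for 8 of the 8 genes (4 each). LS1 replicate 1 held the lowest library for 5 of the 8 genes, and was below the mean in all 8. Control replicate 2 was also above the mean in 0 of the 8, and was lowest for 2. The spread within LS1 was 2.18 times for *Acp5* and 1.81 times for *Calcr*, but 1.05 times for *Nfatc1* and 1.08 times for *Tnfrsf11a*. The ligand and the decoy went otherwise, with LS1 replicate 1 the highest mouse for both and Control replicate 3 the lowest for the decoy.

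**Figure D4:**
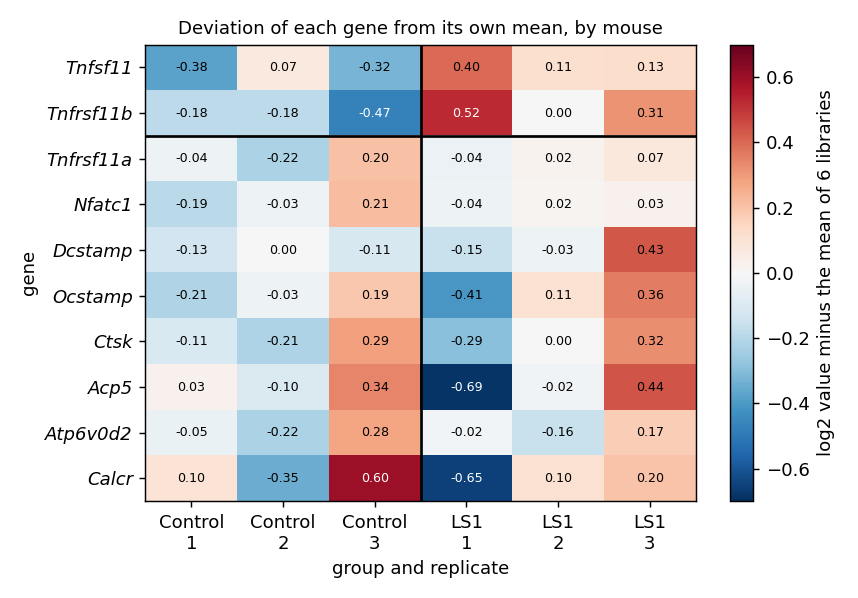
Log2 level of each gene (rows) in each mouse (columns) minus the mean of that gene over the 6 mice, with red above and blue below the mean. The 2 upper rows separate LS1 from Control. In the 8 osteoclast genes replicate 3 of each group lies above the mean, except *Dcstamp* in Control. LS1 replicate 1 lies below the mean in these genes, down to -0.69 for *Acp5*. Some of these deviations are near 0, such as 0.03 for *Nfatc1* in LS1 replicate 3 and -0.02 for *Atp6v0d2* in LS1 replicate 1.

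Other genes of the pathway were taken as 7 lists, and limma called 0 genes in each. The list of RANK signaling and its transcription factors had 26 tested genes, of which 16 had a log2 fold change above 0, with a median of 0.08 (0.0054 over all genes). An unadjusted p under 0.05 was reached by 1 of the 26, *Ppp3r1*, higher in LS1. Over all genes tested the share was 7.08% higher and 5.86% lower. *Ppp3r1*, the regulatory subunit of calcineurin, which activates NFATc1, had a log2 fold change of 0.32 (adjusted p = 0.365 from limma). *Camk4*, a calcium-dependent kinase, had a log2 fold change of 0.42 (adjusted p = 0.427 from limma). In the list of repressors and brakes 8 of 11 genes were above 0, with a median of 0.23. LS1 lay above Control without overlap in 2 of the 11, *Lgr4* and *Id2*, against 10.3% of all genes tested. *Lgr4*, which encodes a second receptor for RANKL that restrains osteoclasts, had 4833, 3987 and 3130.2 normalized counts in Control and 5824, 5218 and 5577 in LS1 (log2 fold change 0.50, adjusted p = 0.272 from limma). *Id2*, an inhibitor of basic helix-loop-helix factors, had a log2 fold change of 0.40 (adjusted p = 0.282 from limma). *Nfkbia*, the inhibitor of NF-kappaB with the highest level per kilobase of that list, had -0.07 (adjusted p = 0.874 from limma).

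The costimulatory list, whose genes pass ITAM signals that osteoclasts need beside RANK, had 11 tested genes with a median log2 fold change of 0.0079. An unadjusted p under 0.05 was reached by 3 genes with a lower value in LS1 (*Syk*, *Btk* and *Blnk*) and 1 with a higher value (*Lcp2*), against 5.86% and 7.08% of all genes. The kinase *Syk* had 22505, 24966 and 23415 normalized counts in Control and 14756, 16895 and 17927 in LS1, and every LS1 mouse lay below every Control mouse. LS1 minus Control came to -0.52 on the log2 scale, with a standard error of 0.13. DESeq2 called it and limma did not (adjusted p = 0.194). *Syk*, *Btk* and *Blnk* are also genes of B cells. A list of 11 B cell markers had a median log2 fold change of -0.48, with a summed level of 56389 to 60062 in Control and 34021 to 53201 in LS1, and its part in these values was not tested. The adaptor *Lcp2* had 0.39 (adjusted p = 0.326 from limma), and *Tyrobp* (DAP12), the ITAM adaptor with the highest level per kilobase, had 0.04 (adjusted p = 0.965 from limma).

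The M-CSF axis, which keeps osteoclast precursors alive, was represented by 3 genes. *Csf1r*, the receptor, had a log2 fold change of 0.09 (adjusted p = 0.876 from limma), *Csf1* had 0.19 (adjusted p = 0.612 from limma), and *Il34*, a second ligand of that receptor, had -0.48 (adjusted p = 0.468 from limma). *Il34* was low, at 134 ± 19.5 normalized counts for Control against 95.1 ± 7.30 for LS1 (mean ± SD, n = 3 each). Of 11 tested macrophage markers, which include *Csf1r*, 10 had a log2 fold change above 0, with a median of 0.28. The groups overlapped for each of the 11, where 19.2% of all genes tested did not overlap. The summed level of the macrophage markers ran from 32920 to 43706 for Control and from 41420 to 47262 for LS1, and *Vsig4* was near 0 in all libraries.

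Among 18 genes of the proton and chloride machinery 11 had a log2 fold change above 0, with a median of 0.10. *Car2*, the carbonic anhydrase that supplies protons, was the most abundant per kilobase and had the smallest p. Its normalized counts were 109761, 114261 and 87853 in Control and 58791, 63176 and 63745 in LS1, with no overlap. LS1 minus Control came to -0.74 on the log2 scale, with a standard error of 0.14. DESeq2 called it and limma did not (adjusted p = 0.120). Carbonic anhydrase 2 is also made by red cell precursors. The 10 matched erythroid markers all had a log2 fold change below 0 (median -0.52), with a summed level of 1742170 to 2265870 in Control and 927217 to 1143950 in LS1, and their part in the value of *Car2* was not tested. *Atp6ap2*, an accessory subunit of the pump, had a log2 fold change of 0.42 (adjusted p = 0.253 from limma). In the list of adhesion, fusion and matrix digestion 9 of 13 genes were above 0, with a median of 0.10. *Mmp9*, the gelatinase with the highest level per kilobase there, averaged 162078 ± 25205 normalized counts for Control against 169699 ± 25754 for LS1 (mean ± SD, n = 3 each). *Pstpip2*, an adaptor known to restrain osteoclasts, had 0.64 (adjusted p = 0.2499 from limma), and *Cd44*, a hyaluronan receptor, had 0.39 (adjusted p = 0.267 from limma).

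The list of inputs on *Tnfsf11* in stromal cells had 16 tested genes, 10 with a log2 fold change above 0 and a median of 0.06. An unadjusted p under 0.05 was reached by 4 genes with higher values in LS1 (*Ptgs2*, *Il1b*, *Pthlh* and *Il11ra1*) and by 1 with lower values, *Vdr*. Over all genes tested these shares were 7.08% higher and 5.86% lower. *Ptgs2* encodes cyclooxygenase 2, whose product prostaglandin E2 raises RANKL. *Ptgs2* and *Pthlh* were also on the quantitative PCR panel of the study, which is not analysed here. That panel used the growth plate alone, and the paper marked neither gene as different in LS1 there. *Ptgs2* had 1283, 1411 and 1179 normalized counts in Control and 3138, 2090.3 and 2477 in LS1. LS1 minus Control came to 0.98 on the log2 scale, with a standard error of 0.18. DESeq2 called it and limma did not (adjusted p = 0.106). The cytokine *Il1b* had 0.74 (adjusted p = 0.258 from limma), and the parathyroid hormone receptor *Pth1r*, the most abundant per kilobase, had -0.08 (adjusted p = 0.868 from limma).

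**Figure D5:**
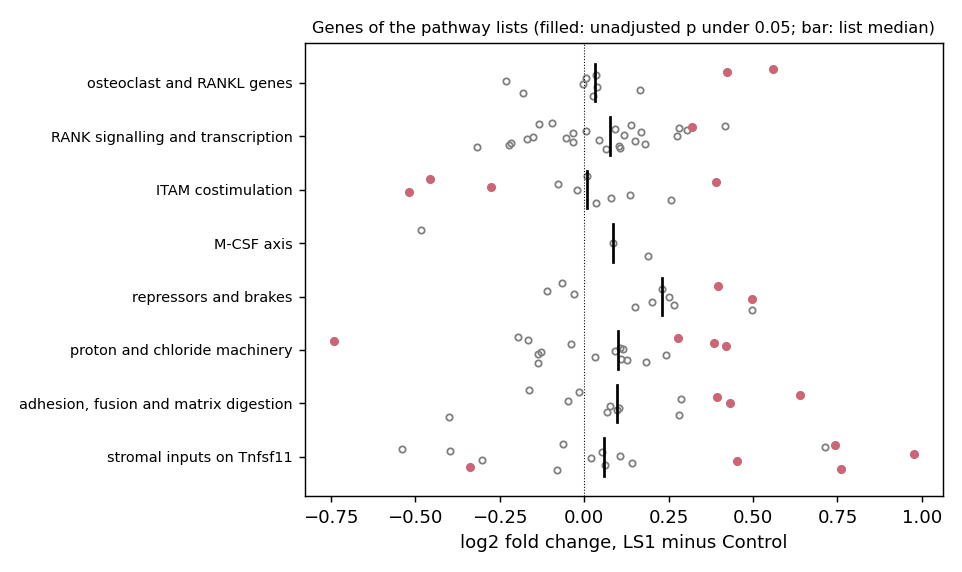
Log2 fold change of LS1 minus Control (x axis) for each gene of the 10 and of the 7 pathway lists (rows), filled where the unadjusted p of limma was under 0.05, with the median of each list as a bar. The medians lie between 0.0079 and 0.23, and single genes such as *Car2* (-0.74) and *Ptgs2* (0.98) lie far from them.

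Markers of cells that make the ligand and the decoy were set beside *Tnfsf11* and *Tnfrsf11b*. Of 12 chondrocyte markers 11 had a log2 fold change above 0 (median 0.49), and their summed level ran from 2580890 to 2942900 for Control and from 3275610 to 3800480 for LS1. Of 7 markers of hypertrophic chondrocytes, 6 were above 0 (median 0.34), with *Col10a1* at 315844 to 372943 normalized counts in Control and 504434 to 533299 in LS1. Only *Mmp13* was below 0, at -0.37 (adjusted p = 0.494 from limma). *Ibsp*, *Spp1* and *Alpl* of this list are also on the list of osteoblast and osteocyte markers. Of 12 osteoblast and osteocyte markers, 7 were above 0 and 5 below (median 0.03), from -1.18 (*Bglap2*) to 0.37 (*Ibsp*). Those above 0 included *Phex* (0.29) and *Alpl* (0.20). Osteocalcin (*Bglap*), a bone matrix protein of osteoblasts, had 57751, 55041 and 45834 normalized counts in Control and 31971, 37175 and 12317 in LS1, with no overlap. Its log2 difference was -1.10, which DESeq2 called and limma did not (adjusted p = 0.3503). LS1 also lay below Control without overlap for *Col1a1*, a chain of collagen I (log2 difference -0.19, adjusted p = 0.616 from limma). T cells also make RANKL, and 8 T cell markers summed to 2100 to 2825 in Control and to 2585, 5089 and 2762 in LS1 replicates 1, 2 and 3. Only LS1 replicate 2 lay above the Control range. Between the groups the summed chondrocyte markers were higher in LS1, as were the ligand and the decoy. Within LS1, replicate 2 had the lowest value of both *Tnfsf11* and *Tnfrsf11b*. The chondrocyte sum was 3341910, 3800480 and 3275610 in LS1 replicates 1, 2 and 3, highest in replicate 2. The sum of the hypertrophic markers was 1516010, 1476330 and 1906760, lowest in replicate 2 and highest in replicate 3. In that sum *Spp1*, shared with the osteoblast list, had 382384, 371848 and 582454. *Col10a1* had 533299, 504434 and 533263, nearly equal in replicates 1 and 3. Single chondrocyte markers differed in order. Replicate 1 was highest for *Hapln1* (282500, 186430 and 165591), and replicate 2 for *Col2a1* (1472060, 2086280 and 1723320). The part of any of these cell types, and of the interferon-response genes, in the values of *Tnfsf11* and *Tnfrsf11b* was not tested.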

How the data were processed

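RNA of 6 mice was sequenced as polyadenylated libraries. The authors mapped the reads to GRCm38 (Ensembl release 84) with HISAT2 2.0.2, counted them with featureCounts 1.4.6 and analysed them with DESeq2. The deposited values are a signal per gene, the read count divided by 1 size factor per library. Reads were recovered by dividing by the value of 1 read, and 100% of the values came out whole (tolerance 0.01). In Control replicate 1 that value, 1.01, was close to 1. The size factor recomputed from its recovered reads was 0.991, the same as the deposited factor.

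Genes with a mean of at least 20 reads were tested with limma 3.58.1 (R 4.3.3) on log2(value + 1), with trend and robust moderation and Benjamini-Hochberg adjustment over all 19308 genes at 0.05. A fold change on this scale understates that of low genes. Alternatives were edgeR 4.0.16 and DESeq2 1.42.0 on the recovered reads, other scalings, filters and pseudocounts, a replicate block, and each library left out. Symbols, coordinates and exon lengths came from GENCODE M21 (GRCm38), which named 99.1% of identifiers.

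The 10 genes and all lists were chosen with earlier results of these data known. From each pathway list the text names the 2 genes with the smallest p and the most abundant per kilobase, and other genes were chosen after their values were seen. The p-values of limma set the difference between the groups against the spread between 3 mice of each group, moderated over all genes fitted.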

Additional observations from a re-analysis of the deposited data

How the results depend on the processing

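None of the 10 genes was called with any of the 16 alternative settings on the gene tests, and the fits without 1 library each called 0 of them. *Tnfsf11* and *Tnfrsf11b* kept their direction with all 16. Their adjusted p-values ran from 0.266 to 0.652 and from 0.0800 to 0.524, over limma, edgeR and DESeq2. The unadjusted p-values of the same tests ran from 0.021 to 0.142 for *Tnfsf11* and from 0.0027 to 0.035 for *Tnfrsf11b*. That of *Tnfsf11* thus did not stay under 0.05 with every setting. Fits that omitted 1 library gave log2 fold changes from 0.33 to 0.56 for *Tnfsf11* and from 0.44 to 0.70 for *Tnfrsf11b*. For the other genes these fits spanned 0, from -0.13 to 0.18 for *Ctsk*, -0.45 to 0.12 for *Acp5*, -0.012 to 0.28 for *Dcstamp*, -0.13 to 0.25 for *Ocstamp*, -0.12 to 0.13 for *Atp6v0d2*, -0.46 to 0.038 for *Calcr*, -0.088 to 0.11 for *Nfatc1* and -0.066 to 0.15 for *Tnfrsf11a*. *Nfatc1* also changed sign with edgeR (-0.018), DESeq2 (-0.014), TMM scaling (-0.0079) and scaling to total reads (-0.0068). The difference of the log2 ratio of *Tnfsf11* to *Tnfrsf11b* ran from -0.27 to -0.04 with a library left out, and was -0.14 with 1 added to each count.

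The number of genes called among all tested was 14 with limma. It was 7 with edgeR, 459 with DESeq2, 45 with every gene of at least 1 read, 9 with a mean of at least 100 reads and 7 without robust moderation, and 5 to 324 with a library left out (324 without LS1 replicate 3, 46 without LS1 replicate 1, 9 without Control replicate 1 and 5 without Control replicate 2). The cause of these shifts was not tested. The letters that open the sample titles gave a replicate block, but same-lettered mice did not all deviate together (r across 19308 genes 0.05, 0.02 and 0.22). With the block limma called 12 genes and 0 of the 10, the adjusted p was 0.266 for *Tnfsf11* and 0.147 for *Tnfrsf11b*, and the ratio differed by -0.14 (exact sign-flip permutation test, p = 0.5, where the smallest p that 3 pairs allow is 0.25).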

Other observations

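The genes nearest to *Ctsk* and to *Tnfsf11* in pattern were sought among 13252 other genes with a mean of at least 200 normalized counts, by the root mean square difference of log2 values, each centred on its own mean over 6 libraries. Nearest to *Ctsk* were *Naglu* (0.040), *Sh3d21* (0.047), *Smpd1* (0.055), *Commd9* (0.056) and *Cd59a* (0.057), where the median candidate was at 0.30. *Naglu* had 2306, 2018 and 2993 normalized counts in Control and 2020, 2579 and 3113 in LS1, so that replicate 3 of each group was the highest, as for *Ctsk*. Nearest to *Tnfsf11* were *Chmp4c* (0.056), *Sfrp5* (0.057), *Snapc1* (0.061), *Fras1* (0.067) and *Ccpg1os* (0.085), where the median candidate was at 0.33. *Sfrp5* had 1495, 1976 and 1556 normalized counts in Control and 2329, 2149 and 2016 in LS1, with replicate 2 the highest of Control and replicate 1 the highest of LS1, as for *Tnfsf11*. With 6 libraries and this many candidates, near patterns describe these libraries alone.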
